A study of Mus musculus with 6 samples.

Results

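Genes of the mouse major histocompatibility complex (MHC) class II pathway, 8 in number, were examined in pancreatic islets of FXR+/+ and FXR-/- mice. They are H2-Aa, H2-Ab1, H2-Eb1, H2-Ea-ps, Cd74, Ciita, H2-DMa and H2-DMb1. They were found by symbol in the deposited gene count table, where each has 1 row, so they are 8 of 19342 genes. The set was chosen by name with the counts of these genes in the 6 libraries, the uneven counts of H2-Ea-ps among them, already in view. Its genotype differences are therefore given as a description, and the counts of calls from fits across all genes lend them no support.

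The data are poly(A)-selected RNA-seq libraries of islets freed from the pancreas with collagenase. The wild-type controls (FXR+/+) and the knockouts of the bile acid receptor FXR (gene Nr1h4, FXR-/-) each comprised 3 libraries, 1 from females and 2 from males, all at 3 months of age and with no further treatment named. The knockout line is described as C57Bl/6, but the labels give no strain for either group, and whether a library holds islets of 1 mouse or of several is not given in the sources used here. If the libraries do not come from separate mice, the spread between them is in part technical.

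MHC class II molecules are pairs of an alpha and a beta chain on the surface of antigen-presenting cells, where they show peptides from endocytosed proteins to CD4+ T cells. In the mouse, H2-Aa and H2-Ab1 encode the chains of I-A, and Ea and H2-Eb1 those of I-E. The invariant chain Cd74 escorts the new chains, the H2-DM heterodimer (H2-DMa with a DMb chain) loads peptide, and Ciita is the transcriptional coactivator on which class II transcription depends. In islets the class II-positive cells are mainly resident macrophages, with dendritic cells and B cells as further sources. C57BL/6 mice carry the H2-b haplotype, in which a deletion at the 5′ end of Ea abolishes its transcription, and H2-Ea-ps is the name of this allele's locus. In GENCODE vM21 (GRCm38) it is annotated as a polymorphic pseudogene, in RefSeq as a transcribed pseudogene named H2-Ea.

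Of the 8 genes, 6 lie within 225105 bases of chromosome 17 in GRCm38. From the lower coordinate these are H2-DMa (34119541 to 34139101, plus strand), H2-DMb1 (34153072 to 34160230, plus), H2-Ab1 (34257689 to 34269419, plus), H2-Aa (34282744 to 34287823, minus), H2-Eb1 (34305867 to 34316674, plus) and H2-Ea-ps (34341959 to 34344645, minus). H2-Ea-ps and H2-Aa are paralogous alpha-chain genes. Each has an exon of 282 bases that codes for the membrane-proximal domain in the annotated coding transcript, and this exon is shown because it carried the most H2-Ea-ps exon counts and because it tells how far reads of the paralogs can be told apart. The exons lie on the minus strand at chr17:34343628-34343909 for H2-Ea-ps and chr17:34283575-34283856 for H2-Aa. They are read 5′ to 3′ from the GENCODE vM21 transcripts, and capitals mark the 95 bases at which the sequences differ when set side by side without gaps.
H2-Ea-ps: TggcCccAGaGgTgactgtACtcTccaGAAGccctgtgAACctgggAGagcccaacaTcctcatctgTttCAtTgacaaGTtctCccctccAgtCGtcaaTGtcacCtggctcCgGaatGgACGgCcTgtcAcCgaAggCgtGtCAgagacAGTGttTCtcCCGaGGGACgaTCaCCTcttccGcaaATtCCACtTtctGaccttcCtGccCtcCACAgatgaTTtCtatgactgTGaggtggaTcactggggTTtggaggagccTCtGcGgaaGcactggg
H2-Aa: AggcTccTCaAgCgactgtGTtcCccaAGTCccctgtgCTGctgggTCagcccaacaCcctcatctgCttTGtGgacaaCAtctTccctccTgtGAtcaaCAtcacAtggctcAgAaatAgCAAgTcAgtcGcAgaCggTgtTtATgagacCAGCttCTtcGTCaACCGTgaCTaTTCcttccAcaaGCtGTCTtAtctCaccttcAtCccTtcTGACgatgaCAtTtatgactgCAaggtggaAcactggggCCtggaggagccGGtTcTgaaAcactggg
The exons are 66.3% identical, and the longest run of identical bases is 10.

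Class II promoters carry an X box, bound by the RFX complex, and a Y box (an inverted CCAAT), bound by NF-Y, at a fixed spacing, and Ciita acts through the factors bound there. RefSeq promoter windows on GRCm38, from 250 bases before to 50 after the annotated start, were matched for H2-Aa, H2-Eb1, H2-DMb1 and H2-DMa. For H2-Ab1, H2-Ea-ps and Ciita no window was available. Cd74 was left out of the search, so whether its promoter holds the motif was not tested. The motif was the letters GNAAC (the start of the X box) followed by ATTGG (the Y box) 30 to 36 bases further. The distance was counted between the first bases, and both strands were searched. The pair was found in 3 of the 4 genes searched. The motif was chosen after the sequences had been read. Of 32851 RefSeq promoter windows of 300 bases, 84.8% held GNAAC, 37.4% held ATTGG and 1.25% held the pair at this spacing. The windows around the pair are given 5′ to 3′ on the gene's strand, with both motifs in capitals, and they are shown because the letters and their spacing are shared between genes of the set. A match describes the letters and is not a measured binding site. Of 9 other class II pathway genes with a window, 3 held the pair (H2-Oa, H2-Ob and H2-Eb2), and it was not found in H2-DMb2, Ifi30, Ctss, Ctsl, Lgmn or Ctsd. H2-Ob is added since its counts are given further on.
H2-Aa, chr17:34287855-34287916, minus strand: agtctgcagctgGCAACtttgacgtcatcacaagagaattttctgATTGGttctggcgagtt
H2-Eb1, chr17:34305764-34305824, plus strand: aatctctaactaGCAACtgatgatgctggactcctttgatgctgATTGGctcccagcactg
H2-DMb1, chr17:34153085-34153146, plus strand: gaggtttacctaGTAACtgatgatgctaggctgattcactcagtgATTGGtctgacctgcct
H2-Ob, chr17:34238806-34238864, plus strand: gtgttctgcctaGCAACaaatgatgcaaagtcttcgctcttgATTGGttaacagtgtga
X and Y start 33 bases apart in H2-Aa and H2-DMb1, 32 in H2-Eb1 and 30 in H2-Ob. Neither of the H2-DMa windows held the pair.

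The libraries held 20629306 to 30139235 gene counts. Nr1h4 was at 12.2 to 14.2 CPM (counts scaled to a library of 1000000 counts after normalisation by edgeR's trimmed mean of M-values, TMM) in the FXR+/+ libraries and at 5.67 to 7.63 CPM in the FXR-/- libraries. Islet hormone genes were abundant, with the insulin genes at 17.5% to 23.9% of counts. The library FXR+/+ male 1 stood apart in B cell markers, and FXR+/+ male 1 and FXR-/- male 1 in acinar RNA, as given below, so the results these touch are shown with the values by library.

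H2-Ea-ps was counted in 3 libraries and nearly absent from the other 3, in a division that crossed genotype and sex. In FXR+/+ islets it had 1 count in female 1, 1 count in male 1 and 147 counts in male 2. In FXR-/- islets it had 455 counts in female 1, 0 in male 1 and 153 in male 2. Scaled, these are 0.0426, 0.0496 and 4.64 CPM in FXR+/+ libraries and 18.4, 0 and 6.44 CPM in FXR-/- libraries. Thus 1 FXR+/+ and 2 FXR-/- libraries held the transcript. The genotypes overlapped between 0.0426 and 4.64 CPM, with 2 FXR-/- libraries above and 1 below this range. A count of 0 in FXR-/- male 1 allows up to 0.158 CPM (3 counts), and this floor and the intervals below cover counting error only.

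Among the libraries with H2-Ea-ps, FXR-/- female 1 was the highest, with an exact Poisson interval of 16.8 to 20.2 CPM that did not reach the intervals of FXR-/- male 2 (5.46 to 7.54) and FXR+/+ male 2 (3.92 to 5.45). With library size alone the last 2 libraries were at 6.07 and 4.88 CPM. In the female pair the ratio was 432 with an exact 95% counting interval of 77.2 to 17100, the FXR+/+ library having 1 count. No ratio is given for the first male pair, in which both libraries were at or under the floor. For every 100 counts of its paralog H2-Aa in the same library, H2-Ea-ps had 43.6 in FXR-/- female 1, 14.2 in FXR+/+ male 2 and 12.1 in FXR-/- male 2, against 0.078 in FXR+/+ female 1, 0.0695 in FXR+/+ male 1 and 0 in FXR-/- male 1. The strain and H2 haplotype of the single mice are not given in the sources used here, and their part in these counts was not tested.

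The deposited exon table placed H2-Ea-ps reads on each of the 4 listed exons, numbered there from the lower coordinate and thus from the 3′ end of the gene. Exon 3, the 282-base exon printed above, had 22 counts in FXR-/- female 1, 11 in FXR+/+ male 2 and 10 in FXR-/- male 2, and 0 in each of the other 3 libraries. Exon 1 (34342212 to 34342295, without coding bases in the annotation) had 21, 4 and 3 counts in the same order, and again 0 in the rest. Exon 4 (34344398 to 34344645), the most 5′ exon listed, had 10 counts in FXR-/- female 1 and 7 in FXR-/- male 2, and exon 2 had 9 and 5, both being at 0 in FXR+/+ male 2. The paralogous exon of H2-Aa had 51, 59 and 29 counts in FXR+/+ female 1, male 1 and male 2 and 36, 86 and 59 in the FXR-/- libraries. Exon counts of H2-Ea-ps summed to 102 over the libraries against 757 gene counts, so the exon table holds a small part of the reads.

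**Figure D1:**
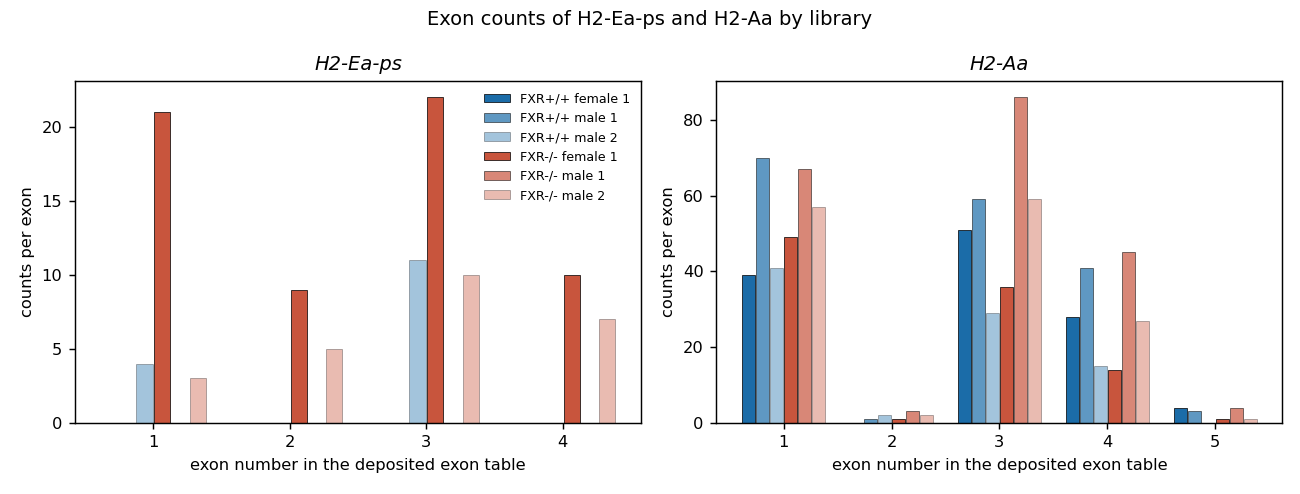
Counts per exon (vertical axis) of H2-Ea-ps (left) and its paralog H2-Aa (right) by exon number in the deposited exon table (horizontal axis), with a bar for each library, blue for FXR+/+ and red for FXR-/-. H2-Ea-ps has bars in FXR+/+ male 2, FXR-/- female 1 and FXR-/- male 2 alone, up to 22 counts on exon 3, while exon 3 of H2-Aa is counted in the 6 libraries at 29 to 86.

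The 10 genes most like H2-Ea-ps were named by Pearson correlation of log2 CPM over the 6 libraries, among 14611 other genes tested, as a description. They were Sv2a (r = 0.995), Tmem19 (0.994), 6330403K07Rik (0.994), A430035B10Rik (0.993), Pianp (0.992), Tmem181c-ps (0.971), Osbpl10 (0.968), Tdrd6 (0.966), Wdfy1 (0.962) and G630025P09Rik (0.962). The 6 points fall into a high and a low set and share depth and scaling. Most of the 10 moved little, the highest library being 1.29 times the lowest for Sv2a, a synaptic vesicle protein, and 1.20 times for Tmem19. For 4 of them the gap was wide.

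Pianp, which encodes a membrane ligand of the paired receptor PILRalpha, had 39, 25 and 587 counts in FXR+/+ female 1, male 1 and male 2 and 875, 26 and 590 in FXR-/- female 1, male 1 and male 2. The 3 libraries with H2-Ea-ps thus stood at 18.5 to 35.4 CPM and the others at 1.24 to 1.66 CPM. 6330403K07Rik had 10.3, 10.3 and 39.9 CPM in FXR+/+ and 48.9, 6.84 and 40.4 CPM in FXR-/- libraries in the same order. Tdrd6, a tudor domain gene of the germ line, was counted 2, 5 and 33 times in the FXR+/+ and 103, 1 and 91 times in the FXR-/- libraries. Tmem181c-ps, a pseudogene, was at 2.05, 1.39 and 6.06 CPM in FXR+/+ and at 8.63, 1.16 and 10.4 CPM in FXR-/- libraries. In each of the 4 genes FXR+/+ male 2, FXR-/- female 1 and FXR-/- male 2 were the highest libraries, as for H2-Ea-ps. Pianp, 6330403K07Rik and Tmem181c-ps were farther from 0 than H2-Ea-ps in the other libraries. Tdrd6, at 2 counts in FXR+/+ female 1 and 1 in FXR-/- male 1, was under the floor of 3 counts there and cannot be told from H2-Ea-ps in nearness to 0.

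These genes are not neighbours of H2-Ea-ps. Pianp is on chromosome 6 (124996720 to 125003096), 6330403K07Rik on chromosome 11 (71031941 to 71033617), and Tdrd6 (43615334 to 43631846) and Tmem181c-ps (6610103 to 6620925) on chromosome 17, in RefSeq's GRCm38.p6 annotation. Of 59 genes with r of at least 0.9 with H2-Ea-ps, 9 (15.3%) lay on chromosome 17, which held 4.89% of all genes compared, a threshold set after the values were seen. The 9 were spread from 6.61 to 81.4 Mb, with Egfl8 the nearest to H2-Ea-ps, at 34.6 Mb.

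**Figure D2:**
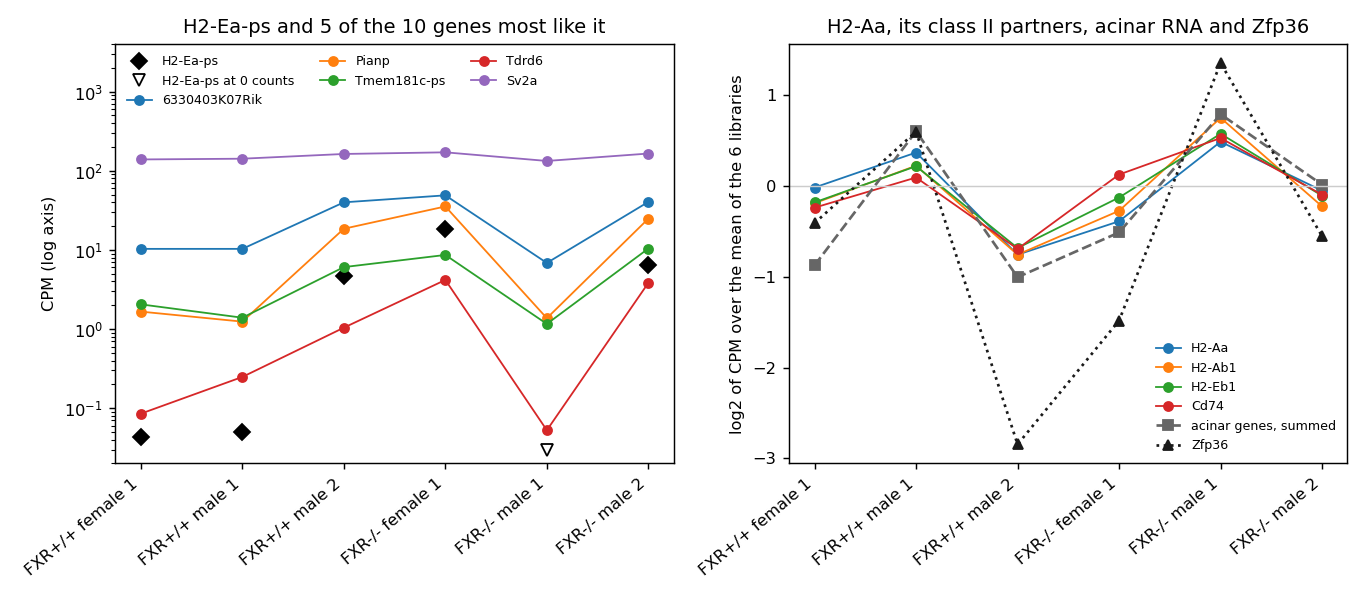
Left, CPM on a log axis of H2-Ea-ps (black diamonds; the open triangle marks the library with 0 counts and has no height) and of 5 of the 10 genes most like it in the 6 libraries; right, log2 of CPM over the mean of the 6 libraries for H2-Aa, H2-Ab1, H2-Eb1, Cd74, the summed acinar genes and Zfp36. Lines join the values of 1 gene and mean no order of libraries; on the left Pianp, 6330403K07Rik, Tmem181c-ps and Tdrd6 are highest in the libraries that hold H2-Ea-ps, and on the right FXR-/- male 1 is the highest point of each gene and FXR+/+ male 2 the lowest.

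The I-A chains, H2-Eb1 and the invariant chain were expressed in every library, with a spread inside each genotype that was wider than the difference between genotypes for H2-Aa. H2-Aa, the I-A alpha chain, was at 54.6, 71.3 and 32.7 CPM in FXR+/+ female 1, male 1 and male 2 and at 42.2, 77.4 and 53.3 CPM in FXR-/- female 1, male 1 and male 2. H2-Ab1, the I-A beta chain, was at 70.9, 94.4 and 47.9 CPM in FXR+/+ libraries and at 66.9, 136 and 69.2 CPM in FXR-/- libraries in that order. The male 1 library was the highest of its genotype in each case, and FXR+/+ male 2 was the lowest of the 6. Scaled by library size alone, H2-Aa was at 69.8 CPM in FXR+/+ male 1 and at 69 CPM in FXR-/- male 1, which turns the order of this pair.

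H2-Eb1, the I-E beta chain, was at 71.1, 93.7 and 50.2 CPM in FXR+/+ libraries and at 73.8, 120 and 74.8 CPM in FXR-/- libraries. It was thus at 71.1 CPM or more in the libraries with at most 1 count of H2-Ea-ps, the gene of the alpha chain with which its product pairs. Cd74 was at 174, 219 and 127 CPM in FXR+/+ and at 224, 296 and 192 CPM in FXR-/- libraries. Its highest and lowest libraries were again FXR-/- male 1 and FXR+/+ male 2.

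Over the 6 libraries log2 CPM of H2-Ab1 and H2-Eb1 gave r = 0.988, H2-Aa gave r = 0.936 with each of them, and Cd74 gave r = 0.951 with H2-Eb1, 0.910 with H2-Ab1 and 0.799 with H2-Aa, the last being 0.539 without FXR+/+ male 2. Ciita gave lower values, at 0.139 with H2-Aa, 0.138 with H2-Ab1 and 0.222 with H2-Eb1, and its counts were few, at 46 to 92 a library. H2-Ea-ps gave negative values with some of the genes, at -0.787 with H2-Aa, -0.725 with H2-Ab1, -0.903 with H2-DMb1, -0.641 with H2-Eb1 and -0.417 with Cd74. With H2-DMa it gave 0.34 and with Ciita 0.18. The 3 libraries with H2-Ea-ps were the lowest 3 for H2-Aa, H2-Ab1 and H2-DMb1, also with library size alone, though not for H2-Eb1 or Cd74. For H2-Aa they were at 32.7, 42.2 and 53.3 CPM and the others at 54.6 to 77.4 CPM, which enters the counts per 100 H2-Aa counts given above. The libraries share scaling and composition, and no test was made of these values.

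Fitted across all genes with sex as a covariate, the log2 fold change (FXR-/- minus FXR+/+, with its standard error, n = 3 a group) was 0.10 ± 0.298 for H2-Aa, 0.33 ± 0.318 for H2-Ab1, 0.31 ± 0.257 for H2-Eb1 and 0.45 ± 0.224 for Cd74. Means were 52.9 ± 19.4 CPM (SD, n = 3) in FXR+/+ and 57.6 ± 18 in FXR-/- islets for H2-Aa, and 173 ± 45.7 and 237 ± 53.4 for Cd74. Within label-numbered pairs, Cd74 was 1.29 times as high in the FXR-/- library in females and 1.35 and 1.5 times in the male pairs. H2-Eb1 gave 1.04, 1.28 and 1.49 in the same order, whereas H2-Aa gave 0.773, 1.09 and 1.63 and H2-Ab1 0.944, 1.44 and 1.44. Without FXR-/- male 1 the fitted value of H2-Ab1 was -0.06 and that of H2-Aa -0.14, and without FXR+/+ male 2 H2-Aa was at -0.23, so their direction rests on these libraries. The same leave-outs brought H2-Eb1 to 0.05 and 0.06, and Cd74 to 0.24 in each. Scaled by library size alone, the values were 0.01 for H2-Aa, 0.23 for H2-Ab1, 0.22 for H2-Eb1 and 0.36 for Cd74.

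**Figure D3:**
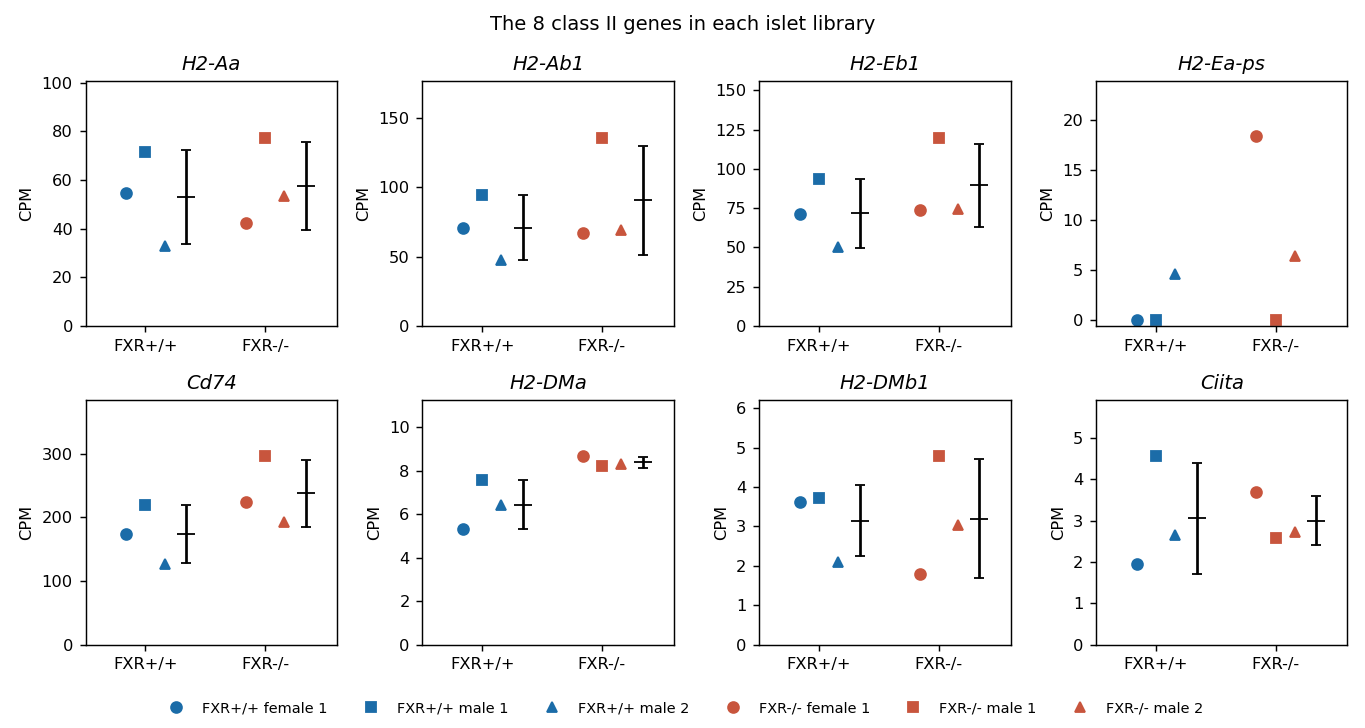
CPM of each of the 8 class II genes (vertical axes, linear, each with its own range) in the FXR+/+ (blue) and FXR-/- (red) libraries, circles for female 1, squares for male 1 and triangles for male 2; the black dash and bar give the mean and SD of 3 libraries and are left out for H2-Ea-ps. The genotypes overlap in 7 genes, and in H2-DMa the FXR-/- libraries, at 8.2 to 8.67 CPM, sit above the FXR+/+ libraries, at 5.33 to 7.58 CPM, an order lost with library size alone (7.32 CPM in FXR-/- male 1 against 7.42 CPM in FXR+/+ male 1).

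H2-DMa and H2-DMb1, the chains of the peptide-loading heterodimer, were far lower and differed from each other. H2-DMa was at 5.33, 7.58 and 6.41 CPM in FXR+/+ and at 8.67, 8.2 and 8.29 CPM in FXR-/- libraries, so its genotypes did not overlap on this scale. Scaled by library size alone they did, with FXR+/+ male 1 at 7.42 CPM and FXR-/- male 1 at 7.32 CPM. The fitted log2 fold change was 0.39 ± 0.159 (SE, n = 3 a group), and the FXR-/- library was 1.63, 1.08 and 1.29 times as high in the female, first male and second male pairs. In the exon table summed per gene, which held 236 counts of H2-DMa against 1048 gene counts, the value was 0.11. H2-DMb1 was at 3.62, 3.72 and 2.11 CPM in FXR+/+ and at 1.78, 4.79 and 3.03 CPM in FXR-/- libraries. The female pair ran from 3.62 down to 1.78 CPM, or 0.492 times, and the male pairs the other way, at 1.29 and 1.43 times, with a fitted value of -0.03 ± 0.378. With 44 to 91 counts a library, and with a close paralog in H2-DMb2, whose shared reads the sources used here do not account for, this gene was imprecise.

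Ciita and Cd74 lie outside the MHC, Ciita on chromosome 16 (10480059 to 10528418, plus strand) and Cd74 on chromosome 18 (60803848 to 60812652, plus strand). Ciita was at 1.96, 4.56 and 2.65 CPM in FXR+/+ and at 3.69, 2.58 and 2.73 CPM in FXR-/- libraries. The exact Poisson interval of its highest library, FXR+/+ male 1, was 3.68 to 5.59 CPM, and that of its lowest, FXR+/+ female 1, was 1.44 to 2.62 CPM. These extremes lay in the same genotype, and the fitted difference was 0.01 ± 0.337. H2-Ea-ps gave 1.84 ± 1.67, which came to 7.78 without FXR+/+ male 2 and to 0.42 without either female library, so that the library left out set the size.

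**Figure D4:**
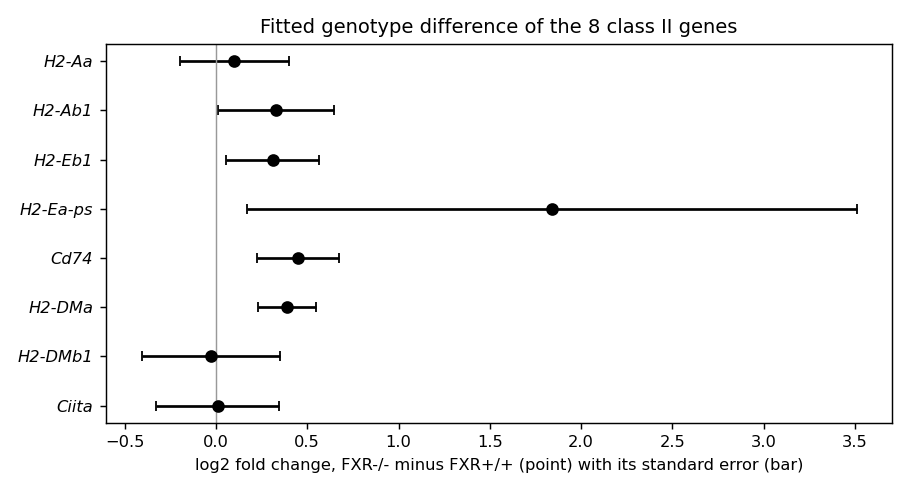
Fitted log2 fold change, FXR-/- minus FXR+/+ (horizontal axis), with its standard error as a bar for each of the 8 class II genes (vertical axis), 3 libraries a genotype. Cd74 at 0.45 and H2-DMa at 0.39 lie farthest from 0 relative to their errors, and H2-Ea-ps at 1.84 has an error of 1.67.

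None of the 8 genes passed an adjusted p of 0.05 in edgeR, where 0 of 14619 genes (0%) did, nor in DESeq2, where 177 did (1.21%), nor with the pair number as a block, where 23 did (0.157%). At an unadjusted p under 0.05 edgeR had 1 of the 8, H2-DMa, and 1511 of all genes (10.3%). In TMM-scaled CPM the genotypes did not overlap in 1 of the 8, again H2-DMa, and in 2250 of all genes tested (15.4%). With library size alone H2-DMa overlapped too. Of 57 listed exons of the 8 genes 15 had enough counts for the fit, and none of these was called, against 5 of 26998 exons (0.0185%). None of the 15 was under an unadjusted 0.05 either, against 2102 exons (7.79%). These counts describe the genes' contrast and, since the set was chosen with it in view, support nothing further.

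Levels were compared between genes as CPM per kilobase of the annotated coding transcript. In FXR+/+ islets Cd74 was the highest at 123 ± 32.4 (SD, n = 3), followed by H2-Eb1 at 61.2 ± 18.6, H2-Ab1 at 58.6 ± 19.2 and H2-Aa at 46.9 ± 17.2 CPM per kilobase, the last 3 being within their spread of each other. A wide step led to H2-DMa at 3.88 ± 0.68 and H2-DMb1 at 2.24 ± 0.64, and Ciita was at 0.722 ± 0.318 CPM per kilobase. H2-Ea-ps, where it was counted, reached 17.8 CPM per kilobase in FXR-/- female 1, 6.21 in FXR-/- male 2 and 4.48 in FXR+/+ male 2, and so lay below H2-Aa in each of these libraries. H2-DMa was at 5.23, 5 and 3.86 CPM per kilobase in the same order. H2-Ea-ps was thus above it in FXR-/- female 1, while in both male 2 libraries their order was within counting error.

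The exons that code for the peptide groove hold most of the differences between class II haplotypes. Exon 4 of H2-Aa (34284288 to 34284536, entirely coding) had 28, 41 and 15 counts in the FXR+/+ and 14, 45 and 27 in the FXR-/- libraries. Exon 2 of H2-Ab1 (34264761 to 34265033) had 41, 114 and 50 against 54, 143 and 89, and exon 2 of H2-Eb1 (34309591 to 34309860) had 32, 59 and 13 against 12, 42 and 46. These are raw counts of libraries of unequal depth. On exon 4 of H2-Aa the lowest 3 libraries were those with H2-Ea-ps, at 14, 15 and 27 counts against 28 to 45. The other exons named here did not divide in this way. On exon 2 of H2-Ab1 the lowest library was FXR+/+ female 1 at 41 counts. On exon 2 of H2-Eb1 FXR-/- male 2 had 46 counts, above FXR+/+ female 1 at 32 and FXR-/- male 1 at 42. In the exon table, which held 6587 counts of Cd74 against 28222 gene counts, Cd74 counts lay mainly on its last exon. That exon is nearly all 3′ untranslated sequence and had 931 to 1280 counts a library. Exon 2 of Cd74 had 4, 36 and 1 in FXR+/+ and 5, 23 and 19 in FXR-/- libraries.

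The 10 genes most like H2-Aa, named in the same way, were Zfp36 (r = 0.996), Rps7 (0.995), Plk2 (0.995), Cyr61 (0.995), Dusp2 (0.991), Ethe1 (0.990), Ptk7 (0.990), Ccl4 (0.990), Klf2 (0.988) and Btg2 (0.986), all over 6 libraries. Zfp36, Cyr61, Dusp2, Klf2 and Btg2 are known as early response genes, and Rps7 is a ribosomal protein gene. Zfp36, an mRNA decay factor induced within minutes of a stimulus, was at 105, 211 and 19.4 CPM in FXR+/+ female 1, male 1 and male 2 and at 49.9, 356 and 95 CPM in FXR-/- female 1, male 1 and male 2. Its highest library was 18.4 times its lowest, against 2.37 times for H2-Aa. Ccl4, a chemokine of activated macrophages, was at 1.19, 4.81 and 0.158 CPM in FXR+/+ and at 0.648, 8.57 and 1.77 CPM in FXR-/- libraries.

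Acinar RNA was highest and lowest in the same libraries as H2-Aa, but the libraries between differed in order. FXR+/+ female 1 was below FXR-/- female 1 and FXR-/- male 2 in acinar RNA and above both in H2-Aa. The summed level of 11 acinar enzyme genes was 43900, 122000 and 40100 CPM in FXR+/+ and 56400, 139000 and 81200 CPM in FXR-/- libraries, so that the male 1 libraries were again the highest and FXR+/+ male 2 the lowest. Its part in the class II levels was not tested. In these bulk samples, fewer class II-positive cells and less class II RNA per cell cannot be told apart.

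Further genes of class II presentation were read from a list of other class II chains and lysosomal enzymes. Of 8 tested genes of a list of 10, none passed, 5 had a positive and 3 a negative fold change, and the median was 0.12, or 0.30 without FXR+/+ male 1, against 0.0084 over all genes. The lysosomal enzymes that trim the invariant chain and antigens were well expressed. Ctss, the protease of the last invariant chain step, was at 31.6, 30.1 and 22.6 CPM in FXR+/+ and at 41.5, 36.1 and 29.6 CPM in FXR-/- libraries (log2 fold change 0.34, adjusted p = 0.461 in edgeR). Lgmn, asparaginyl endopeptidase, was at 24.6, 24.9 and 18.9 against 26.6, 30.5 and 26.6 CPM (0.29, adjusted p = 0.487 in edgeR). Its groups did not overlap, as was so for 2 of the 8 tested (Lgmn and Ctsb), against 15.4% of all genes tested. Ctsl went the other way, with a log2 fold change of -0.13 (adjusted p = 0.544 in edgeR).

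Of the minor class II genes, H2-Ob and H2-DMb2 were clearly highest in FXR+/+ male 1. H2-Ob, the beta chain of the H2-O inhibitor of peptide loading that B cells make, was at 4.21 CPM there, against 0.426 and 0.316 CPM in the other FXR+/+ libraries and 0.729 to 1.31 CPM in FXR-/- libraries. H2-DMb2 was likewise at 4.21 CPM there and at 0.256 to 0.894 CPM in the other 5 libraries. The log2 fold changes of H2-Ob and H2-DMb2 were -0.47 and -0.99, and 1.41 and 1.22 without this library, so 1 library set the direction. H2-Oa was at 1.24 CPM (25 counts) in FXR+/+ male 1 and at 0.999 CPM (19 counts) in FXR-/- male 1, within counting error.

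The B cell list showed the same library. Ms4a1 (CD20), a B cell surface protein, was at 4.81 CPM in FXR+/+ male 1 and at 0 to 0.526 CPM elsewhere, and Cr2, a complement receptor of B cells, was at 4.61 CPM against 0.213 to 0.689 CPM. The summed level of 10 B cell markers was 28, 60.8 and 21.6 CPM in FXR+/+ and 28, 20.6 and 17.2 CPM in FXR-/- libraries, of which Cd79a, a chain of the B cell receptor complex, made up 13.9 to 29.3 CPM. None of the 3 tested members passed, their median was -0.60, or 0.57 without FXR+/+ male 1, and 3 of the 10 markers were at 0 in some library. Cd79a kept its direction, with a log2 fold change of -0.58 (adjusted p = 0.43 in edgeR), or -0.35 without that library. Cd79b went from -1.13 to 0.57 and Cd22 from -0.6 to 0.66. Ciita was also highest in FXR+/+ male 1, and its fitted difference was 0.37 without that library; the part of B cell RNA in this was not tested.

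**Figure D5:**
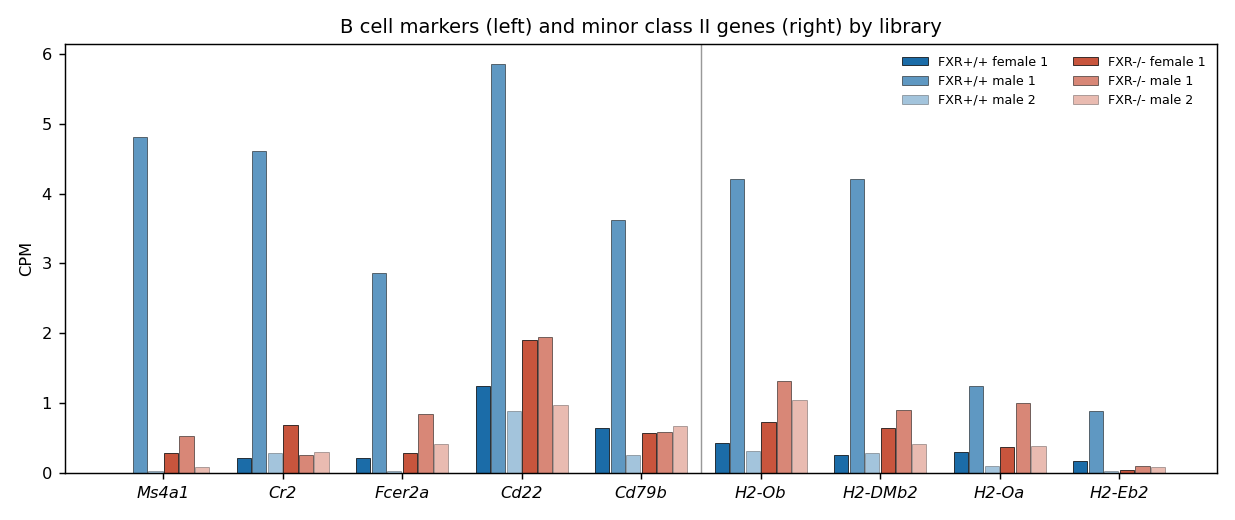
CPM (vertical axis, linear from 0) of 5 B cell markers, left of the grey line, and of 4 minor class II genes, right of it, with a bar for each of the 6 libraries, blue for FXR+/+ and red for FXR-/-. FXR+/+ male 1 is the highest bar for each gene, at 4.81 CPM for Ms4a1 and 4.21 CPM for H2-Ob and for H2-DMb2. For H2-Oa it is at 1.24 CPM, with FXR-/- male 1 near it at 0.999 CPM.

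Macrophage markers were present in every library. The summed level of 13 markers was 244, 253 and 169 CPM in FXR+/+ and 249, 262 and 226 CPM in FXR-/- libraries, FXR+/+ male 2 being the lowest as it was for the I-A genes. Of the 12 tested, 9 had a positive fold change, none passed, and the median was 0.25, or 0.37 without FXR+/+ male 1. The complement gene C1qc, a product of tissue macrophages, was at 13.7, 14.2 and 10.7 against 18.6, 18.9 and 15.4 CPM (log2 fold change 0.46, adjusted p = 0.43 in edgeR). Csf1r, the receptor for macrophage colony-stimulating factor, was at 12.2, 13.8 and 9.34 against 14.5, 17 and 15.5 CPM (0.41, adjusted p = 0.469 in edgeR). Both had groups that did not overlap, as did 4 of the 12 tested markers, against 15.4% of all genes tested. Of the 12, 5 had a positive fold change at an unadjusted p under 0.05, against 10.3% of all genes in either direction. The part of macrophage RNA in the Cd74 and H2-DMa values was not tested.

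Dendritic cell markers were low, at a summed 9.63 to 17.9 CPM in FXR+/+ and 13.6 to 18.3 CPM in FXR-/- libraries, with a median log2 fold change of -0.02 over 6 tested, or 0.28 without FXR+/+ male 1, and none passing. T cell markers summed to 1.96 to 7.84 CPM in FXR+/+ and 3.03 to 4.78 CPM in FXR-/- libraries, and none of 4 tested passed, with a median of -0.82, or -0.15 without FXR+/+ male 1. The pan-leukocyte list, at 35.8, 59.1 and 18.9 against 39.6, 36.8 and 31.6 CPM, had a median of -0.19, which came to 0.46 without FXR+/+ male 1. The 6 endothelial markers each had a positive fold change at an unadjusted p under 0.05, against 10.3% of all genes in either direction, and none passed in edgeR. Their median was 0.61, or 0.68 without FXR+/+ male 1. Emcn and Plvap of these were called by DESeq2, as were 1.21% of all genes (log2 fold change 0.59, adjusted p = 0.00881, and 0.68, adjusted p = 0.00841).

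Of the regulators of class II transcription none of 17 tested passed, 13 had a negative fold change, and the median was -0.08, or -0.11 without FXR+/+ male 1. The RFX subunits bind the X box, and Rfx5 was at 33.7, 35.8 and 41.6 CPM in FXR+/+ and at 35.4, 35.9 and 35.7 CPM in FXR-/- libraries. Nfya, a subunit of the Y box factor NF-Y, was at 22.2, 23.3 and 22.7 against 18.8, 19.2 and 18.5 CPM, the 1 of the 17 without overlap, against 15.4% of all genes (log2 fold change -0.27, adjusted p = 0.43 in edgeR).

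The costimulatory list (5 tested) had no gene that passed and a median of 0.03, which came to 0.42 without FXR+/+ male 1. The class I list, of chains and other genes of the presentation of cytosolic peptides, had none of 11 that passed. Its median was 0.12, also without FXR+/+ male 1. B2m, the class I light chain, was highest in FXR-/- female 1 at 186 CPM, against 83.4 to 118 CPM in the other 5 libraries (log2 fold change 0.39, adjusted p = 0.461 in edgeR). Of 34 tested neighbours in the MHC region none passed, 25 had a positive fold change and the median was 0.09, or 0.12 without FXR+/+ male 1. The 5 neighbours at 0 in some library (Btnl1, Btnl2, Btnl4, Btnl6 and Col11a2) had at most 12 counts in any library, against 455 for H2-Ea-ps.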

How the data were processed

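RNA of islets from 3 FXR+/+ and 3 FXR-/- libraries was sequenced on an Illumina platform. The authors deposited raw read counts per gene (19342 genes) and per exon, and HISAT is named in the submitters' processing notes. Versions, counter, strand setting and annotation are not given in the sources used here, and 86.7% of the 139263 exons match a GENCODE vM21 exon of GRCm38 exactly. Libraries were grouped by their labels, and no per-sample column was left unused (0). The authors' own comparison tables, which hold fold changes and p-values, were not used. The 8 genes and the gene lists were chosen with earlier results of these data known.

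Counts were filtered with filterByExpr (minimum count 10, minimum total 15), which kept 14619 genes including the 8, scaled by TMM and fitted with edgeR 4.0.16 (quasi-likelihood test, sex and genotype) in R 4.3.3, with Benjamini-Hochberg adjustment over all genes. DESeq2 1.42.0 and the other settings named in the closing section were alternatives, and the code was tested on simulated data. CPM uses the TMM-scaled library size, log2 CPM a prior count of 1, and CPM per kilobase the GENCODE transcript with the longest coding sequence. Total gene counts of 20629306 to 30139235 per library set the precision, and Poisson intervals are at 95%. A poly(A) selection with random priming was used, so longer transcripts give more counts. Libraries with the same label number in both genotypes deviated together (r = 0.36, 0.359 and 0.316 across 14619 genes), so the numbers were taken to pair the samples. The main fit, with its standard errors and adjusted p values, holds sex and not this pairing. The pairing was fitted as an alternative, the replicate block. Genes named in the text are the 8, the list members a result turns on or with an adjusted p under 0.05, and the 10 genes with the highest r with H2-Aa and with H2-Ea-ps. Leaving FXR+/+ male 1 out of the list medians was chosen after seeing the data. Some members of the gene lists are not reported here by name.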

Additional observations from a re-analysis of the deposited data

How the results depend on the processing

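Of the class II genes and the other class II and regulator genes, 0 passed the adjusted threshold under each alternative. Of the exons 0 passed with the replicate block, the only alternative run for them. In the marker lists 2 did with DESeq2 (Emcn and Plvap), and 0 under each other alternative. Over all genes the count was 0 in the main edgeR fit (1511 at an unadjusted p under 0.05), 23 with the replicate block, 177 with DESeq2, 4 with exon counts summed per gene and 6 with a term for leukocyte RNA; the cause of these differences was not tested. The block changed no call among the 8 genes, their exons, the other class II, regulator and costimulatory genes or the leukocyte, endothelial, class I and MHC region lists. It was not read for the acinar list or the other genes named. With the block, which holds the pairing, the edgeR adjusted p was 0.0784 for Cd74 (0.5 in the main fit) and 0.21 for H2-Eb1 (0.641). H2-Ab1 gave 0.266 (0.692), H2-DMa 0.27 (0.473) and H2-Ea-ps 0.302 (0.673). H2-Aa gave 0.704 (0.911), Ciita 0.962 (0.989) and H2-DMb1 0.981 in each. Over 17 alternatives Cd74 stayed between 0.24 and 0.68 (log2), H2-Eb1 between 0.05 and 0.56 and H2-DMa between 0.11 (exon counts) and 0.5. H2-Ab1 ran from -0.06 to 0.57, H2-Aa from -0.23 to 0.39, Ciita from -0.42 to 0.37 and H2-DMb1 from -0.38 to 0.43, so their sign was not stable. H2-Ea-ps ran from 0.42 to 9.92 (with the leukocyte term) over 16, a filter of 10 counts in every library removing it. Leaving out 1 female library leaves no female contrast, which gives the males alone. The correlation of H2-Aa with Cd74 ran from 0.539 to 0.948 with 1 library left out, and those with H2-Ab1 and H2-Eb1 moved by less than 0.1. Scaling by library size alone moved the median of all genes to -0.087. Low counts limit H2-Ea-ps, H2-DMb1, Ciita and the exons, 42 of 57 of which had too few for the fit.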
